A study of Glycine max with 12 samples.

Results

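The genes described are LOC100803799, annotated as a ruBisCO-associated protein-like gene, LOC100781192, annotated as protein LURP-one-related 12-like, and LOC100784954, annotated as annexin D4-like. These 3 of the 35095 soybean (Glycine max) genes named on the array were chosen by their intensities in the 2 varieties, since each was nearly absent in one and present in the other. Those intensities are therefore given as a description with no test, and the choice had no numerical threshold. Their probe sets were found by gene symbol in the array annotation, which gave 6 probe sets, 5 of them with distinct values, and all 6 were bright enough to enter the tests.

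Root RNA was hybridised to 12 Affymetrix arrays, 1 for each combination of variety, treatment and time. The varieties were Guangfengmaliaodu, written GF and labelled Al-sensitive, and KF, labelled Al-tolerant, which the labels name by these 2 letters. Seedlings spent 3 days in moist sterile sand with 14 h days and 10 h nights. They then stood in 0.5 mM CaCl2 at pH 4.3, without AlCl3 (control) or with 25 µM AlCl3 (Al), and roots were taken after 6, 12 and 24 h. No condition was repeated, so the error behind each test is the variation of an effect between times or treatments, and no value has a replicate. Only 1 variety of each kind was used, so a difference between GF and KF is one between these 2 varieties. In RNA of whole roots, fewer cells of a type and less RNA per cell cannot be told apart.

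Annexins are proteins that bind membrane phospholipids when calcium is present, and plant annexins are studied in calcium signalling and in responses to drought and salt. The LURP-one family takes its name from Arabidopsis LURP1, a gene induced by an oomycete pathogen and needed there for full basal defence. RuBisCO-associated protein was described in soybean leaves and is related to the class III chitinases and to the seed protein narbonin. Aluminium becomes soluble in acid solution and inhibits the elongation of roots.

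Each array carries 23 antigenomic probe sets, which match no soybean sequence and give the background. A probe set was taken as above background on an array when its intensity exceeded the 95th percentile of these 23. That percentile lay between 29.3 and 72.8 on the 12 arrays, and was highest on the GF control array at 24 h. The same array had the fewest main probe sets above background, 2477, against 4589 to 8182 on the other arrays. The median of the 23 was far lower than the 95th percentile, at 3.02 to 4.65, so the cut is a strict one. LOC100781192 and LOC100784954 were above that median on all 6 GF arrays. LOC100803799 (by its own probe set) and LOC100784954 were above it on 3 of 6 KF arrays. Over all arrays, 82.3% of the 66195 main probe sets never rose above background. Seed markers stayed below background on all arrays in 24 of 24 probe sets, with summed intensities of 60.5 to 65.8 in GF and 56.9 to 65.4 in KF. Shoot markers stayed below background in 57 of 64 probe sets, and their sums ran from 1097 to 2099 in GF and from 647 to 1818 in KF. Nodule markers stayed below in 11 of 13, with sums of 572 to 883 in GF and 142 to 994 in KF. Root hair markers were above background on at least 1 array in all but 1 of 5 probe sets, with sums of 162 to 253 in GF and 131 to 259 in KF. Endodermis markers, found by the words Casparian strip membrane protein or SCARECROW, stayed below in 46 of 69. Their sums were 996 to 1105 in GF control, 1363 to 1652 in GF with Al, 965 to 1174 in KF control and 1242 to 1844 in KF with Al. All marker lists were found by words in the annotation, which can also match relatives that mark no such tissue. The sums are therefore no measure of the amount of a tissue. The part of these markers in the results below was not tested.

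The probe set specific to LOC100803799 has 13 probes on the plus strand of chromosome 3 at 2696108 to 2696799 (coordinates of assembly V1.0, as cited in the array annotation), over the gene model GLYMA03G02870. In GF control roots its intensity was 367 after 6 h, 147 after 12 h and 43.5 after 24 h. In GF roots with Al it was 777, 1152 and 609.6 in the same order. In KF it was 3.14, 3.21 and 2.86 in control and 2.70, 3.54 and 3.22 with Al, in order of time. Every GF array was thus far brighter than every KF array. The 6 KF values lay near the middle of all main probe sets, between the 41.9 and 53.6 percentiles of their arrays, and never above background. The GF values were above background on 5 of 6 arrays, the exception being the control at 24 h. Because the KF values were not above background, the variety difference is given as a bound. LOC100803799 was at least 10.3-fold higher in GF, and the ratio of the measured means was 106-fold. Without the 24 h arrays the bound was 14.97-fold.

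LOC100781192 showed the opposite pattern. Its 11 probes lie on the minus strand of chromosome 20 at 3326279 to 3326720, with no GLYMA gene model listed. The predicted transcript listed beside the RefSeq one is placed on the plus strand. In KF its intensity was 72.4, 80.6 and 65.5 in control and 71.5, 66.4 and 61.5 with Al at 6, 12 and 24 h. In GF it was 6.33, 4.11 and 6.80 in control and 5.02, 6.33 and 7.54 with Al. All KF arrays were above background and no GF array was, and the varieties did not overlap. The gene was at least 1.69-fold higher in KF, and the measured means differed 11.7-fold. Within KF the highest array was only 1.31 times the lowest, so this gene had the steadiest level of the 3 in the variety that showed it. Without the 24 h arrays the bound was 1.89-fold.

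LOC100784954 was again brighter in GF. Its 9 probes lie on the minus strand of chromosome 13 at 30184886 to 30187916, over GLYMA13G27010. In GF control roots the intensity was 17.5 after 6 h, 7.59 after 12 h and 36.5 after 24 h. With Al it was 108, 76.3 and 35.8 at the same times. In KF it was 3.17, 2.24 and 3.09 in control and 3.46, 3.04 and 4.82 with Al. The lowest GF array was still above the highest KF array, but GF rose above background on only 3 of 6 arrays, those with Al. No KF array did. The measured means differed 10.4-fold, and the bound set by the background is 1.05-fold, so the size of this difference is the least secured of the 3. Without the 24 h arrays the bound was 1.03-fold.

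**Figure D1:**
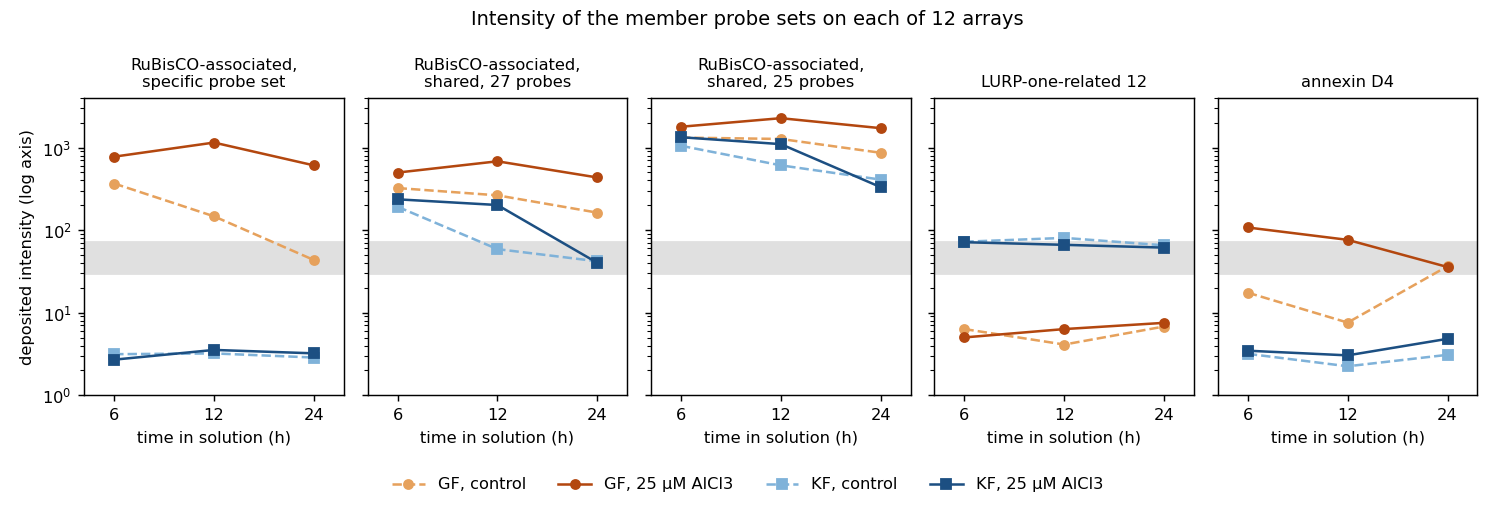
Deposited intensity (log axis) of the 5 distinct probe sets against time in solution (h) on the 12 arrays, with circles for GF, squares for KF, broken lines for control and full lines for 25 µM AlCl3. The grey band spans the 95th percentiles of the background probe sets on the 12 arrays, 29.3 to 72.8. The specific RuBisCO-associated probe set and annexin D4 are higher on all GF arrays, and LURP-one-related 12 on all KF arrays.

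A variety pair without overlap was uncommon on the array: the GF and KF arrays did not overlap for 1.59% of tested probe sets, in either direction. A mean difference of at least 3 log2 units was reached by 42 probe sets, or 0.0846%. The 3 gene-specific probe sets are among both groups by the way they were chosen, so nothing is read from this. Intensity is hybridisation to probes designed on the reference sequence, and a low value is a low hybridisation signal.

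The other 3 probe sets that carry the symbol LOC100803799 gave a different picture of the same chromosome region. Each is annotated to 5 genes, LOC100803799, LOC100796357, LOC100793190, LOC100788442 and LOC100785788, all ruBisCO-associated protein-like. The annotation marks them as able to bind several transcripts, and none lists the RefSeq transcript of LOC100803799 itself. The one with 27 probes, at 2637653 to 2638825 on the plus strand, read 324, 264 and 163 in GF control and 499, 683 and 435 in GF with Al at 6, 12 and 24 h. In KF it read 192, 58.9 and 42.0 in control and 236, 202 and 40.2 with Al. These varieties overlapped, and all 12 arrays were above background. The other 2 have 25 probes each, at 2642252 to 2643121 and 2678418 to 2679287 on the minus strand, and hold identical values. They read 1323, 1273 and 866 in GF control and 1790.4, 2274 and 1721 in GF with Al. In KF they read 1052, 609.9 and 409.7 in control and 1337, 1102 and 332 with Al. The shared probe sets were therefore bright in both varieties, with measured GF means 3.62-fold and 2.07-fold above KF, while the specific probe set was dark in KF. Without the 24 h arrays these 2 folds were 2.71 and 1.64.

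Across the 6 GF arrays, log2 values of the specific probe set followed those of the shared ones, with Pearson r of 0.98 for the 27-probe set and 0.97 for the 25-probe sets. Across the 6 KF arrays r was 0.00 and -0.05. In KF the specific probe set varied only within the background, and the 27-probe and 25-probe sets followed each other with r of 0.98. These are descriptions over arrays that share times and treatments. The specific set of LOC100803799 and that of LOC100784954 gave r of 0.51 in GF.

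The Al comparison was not used to choose the genes and was tested with limma, with each variety and time as a pair of control and Al arrays. In GF, 0.828% of 49646 probe sets were called at an adjusted p below 0.05. None of the 5 distinct member probe sets was among them. The specific probe set of LOC100803799 was brighter with Al at all 3 times, by 2.11-fold after 6 h, 7.83-fold after 12 h and at least 8.38-fold after 24 h. The last is a bound because the control value at 24 h, 43.5, was not above that array's background of 72.8; the measured ratio was 14.0. The mean log2 difference of the measured values over 3 pairs was 2.62 ± 0.47 (SE), with an adjusted p of 0.0628 in limma. Here and below, the SE of an Al or time effect comes from a spread that limma shares between the 2 varieties. It was therefore also 0.47 in KF, where the values lay within the background, while the 3 GF differences ran from 1.08 to 3.81. Of all tested probe sets, 1.79% were at least 2-fold brighter with Al at all 3 times in GF. The specific probe set of LOC100803799 was the only one of the 5 to be so. For the same reason the control value at 24 h was at least 5.05-fold lower than at 6 h (measured ratio 8.45), while the values with Al stayed between 609.6 and 1152. Without the GF pair at 24 h the difference was 2.02 (adjusted p 0.258 in limma), and without the GF pair at 6 h it was 3.39 (adjusted p 0.0320). Without the KF pair at 24 h, which changes only the spread, the adjusted p was 0.0376, and without all 24 h arrays it was 0.0490.

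The shared probe sets were also brighter with Al at all 3 times in GF, as were 18.6% of tested probe sets. Their differences were smaller, at 1.14 ± 0.37 for the 27-probe set (shared SE, mean of 3 pairs, adjusted p 0.225 in limma) and 0.75 ± 0.25 for the 25-probe sets (adjusted p 0.230). Neither passed the test. Without the GF pair at 24 h these were 0.996 and 0.64.

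LOC100784954 was at least 3.17-fold brighter with Al at 6 h and at least 1.57-fold at 12 h in GF, since no GF control value of this gene was above background. The measured ratios were 6.16 and 10.1, and at 24 h 0.979. The mean difference of the measured values was 1.97 ± 0.57 (shared SE, mean of 3 pairs), with an adjusted p of 0.177 in limma. No call was made, and the value moved both ways with the pairs left out. Without the GF pair at 24 h, which includes the control array with the highest background, it was 2.98 ± 0.27 (adjusted p 0.0438 in limma). Without the GF pair at 12 h it was 1.30 (adjusted p 0.497). With all 24 h arrays left out the difference was also 2.98, with an adjusted p of 0.00222 in limma. With all 12 h arrays left out it was 1.30 (adjusted p 0.677), a setting in which 0 probe sets were called. LOC100781192, which was not above background in GF, gave ratios of 0.792, 1.54 and 1.11 there and a difference of 0.14 ± 0.24 (adjusted p 0.805 in limma).

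In KF, 5.48% of tested probe sets were called for the Al effect, and again none of the 5. LOC100781192, the gene bright in KF, gave Al to control ratios of 0.987, 0.824 and 0.938 at 6, 12 and 24 h. All 3 were below 1, as they were for 29% of tested probe sets. The mean difference was -0.13 ± 0.24 (shared SE, mean of 3 pairs, adjusted p 0.774 in limma). The sign turned to 0.07 after cyclic loess normalization. The 27-probe shared set gave 0.67 ± 0.37 (adjusted p 0.296) and the 25-probe sets gave 0.30 ± 0.25 (adjusted p 0.495). Both were brighter with Al at 6 and 12 h and dimmer at 24 h. LOC100803799 gave 0.03 ± 0.47 and LOC100784954 gave 0.40 ± 0.57 on values within the background, where the annexin was nominally brighter at all 3 times, as were 20.4% of tested probe sets. After cyclic loess normalization the KF differences of the 27-probe and 25-probe sets were larger, at 1.05 and 0.80 (adjusted p 0.119 and 0.087 in limma). Those in GF were then 1.27 and 0.94 (adjusted p 0.161 and 0.125).

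**Figure D2:**
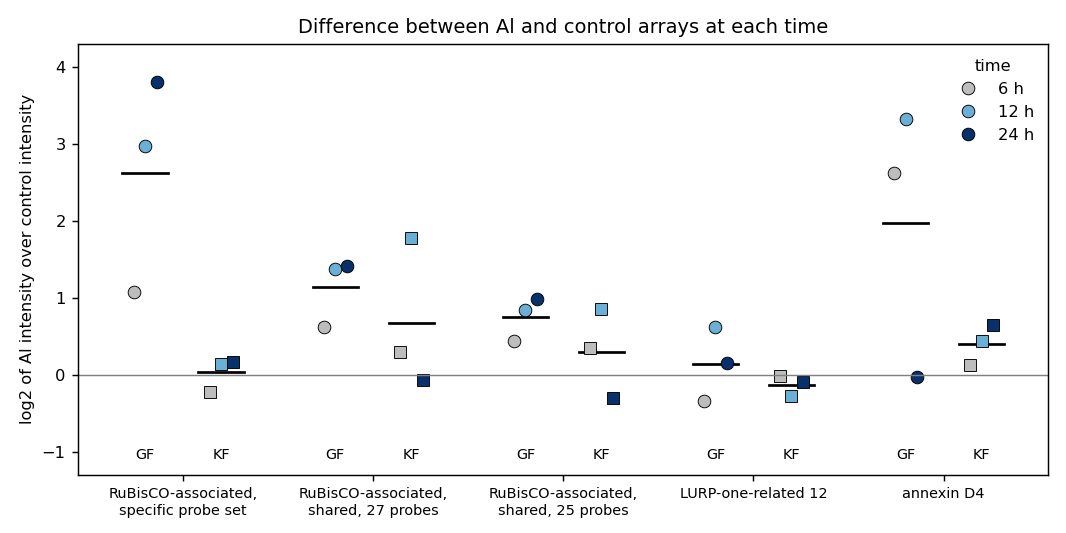
Log2 ratio of the Al array to the control array for the 5 distinct probe sets, with 1 point for each time, circles for GF, squares for KF and a bar at the mean of 3 pairs. The specific RuBisCO-associated probe set in GF runs from 1.08 at 6 h to 3.81 at 24 h, and annexin D4 in GF has points at 2.62 and 3.33 and one at -0.03. These are measured ratios: the GF control arrays were not above background for the first at 24 h and for annexin D4 at all 3 times.

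Whether the Al effect differed between the varieties was tested as the difference of the 2 effects, for which 0.00403% of tested probe sets were called and none of the members. For LOC100803799 the effect in KF minus that in GF was -2.59 ± 0.66, with an unadjusted p of 0.00528 and an adjusted p of 0.953 in limma. For LOC100784954 it was -1.57 ± 0.80, for LOC100781192 -0.27 ± 0.33, and for the shared sets -0.46 ± 0.53 and -0.46 ± 0.36, each with the same adjusted p of 0.953. The KF side of the first 2 lies at the background, where a change in RNA would show only in part. These tests leave the effects neither shown to differ nor shown to be alike.

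Time was tested as 24 h minus 6 h within each variety, with control and Al as 2 series. No probe set was called in either variety (0%), although 6759 in GF and 6608 in KF had an unadjusted p below 0.05 in limma. In GF, LOC100803799 differed by -1.71 ± 0.57 (SE shared by both varieties, mean of 2 series, adjusted p 0.336 in limma). The difference came mainly from the control series: without the Al series the difference was -3.08, and without the control series -0.35. In KF the shared sets were lower at 24 h in both series, by -2.37 ± 0.46 for the 27-probe set and -1.69 ± 0.31 for the 25-probe sets (each adjusted p 0.375 in limma). Without the KF control series, which leaves 1 KF array at each time, these were -2.56 and -2.01. The spread then comes from GF alone, so no p-value is given. LOC100781192 differed by -0.18 ± 0.29 in KF, and LOC100784954 by -0.26 ± 0.69 in GF. The latter averages series that went opposite ways, with 1.06 in control alone and -1.59 with Al alone.

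Of 21 annexin probe sets 14 never rose above background (66.7%), and of 26 LURP-one probe sets 21 never did (80.8%), beside the 82.3% of all main probe sets. Of the 23 probe sets of RuBisCO-associated proteins, class III chitinases and their relatives, 13 never rose above it (56.5%) and 7 were above it on all 12 arrays. The counts that follow leave the member probe sets out.

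In the variety contrast, where 3.78% of all tested probe sets were called, 3 of 17 tested annexin probe sets were called and all 3 were lower in KF. Over all tested probe sets 1.62% were called lower in KF and 2.17% higher. The annexin median was -0.04, against 0.01 over all tested probe sets. LOC100796047 (annexin D2-like, chromosome 5) ran from 36.0 to 65.7 in GF and from 5.51 to 35.4 in KF, a difference of -1.20 ± 0.25 (adjusted p 0.0337 in limma). LOC100796092 (annexin-like protein RJ4-like, chromosome 15) differed by -0.77 ± 0.14 (adjusted p 0.0171) and LOC100785486 (annexin D3-like, chromosome 13) by -0.47 ± 0.10 (adjusted p 0.0347), both on intensities under 8 that are within the background. Over 13 alternatives the call of LOC100796047 was lost in 5, with adjusted p-values up to 0.195, and that of LOC100796092 in 3. Both were lost without the control arrays of 6 h or of 12 h, and the call of LOC100785486 was lost in 7 of 12.

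With Al, 1 of 17 tested annexins was called in GF and 0 in KF, beside 0.828% and 5.48% of all tested probe sets. The one called was LOC100785486, whose intensity was 2.75, 1.96 and 2.06 in GF control and 4.77, 3.28 and 3.23 with Al, a difference of 0.73 ± 0.08 (adjusted p 0.0142 in limma). It lies beside the annexin D4 gene, and both were brighter with Al in GF at 6 and 12 h. In KF control LOC100785486 read 2.11, 1.92 and 2.33 in order of time. The GF arrays with Al thus enter both its Al call and its variety call. Its Al call was lost under 7 of 15 alternatives, among them leaving out any 1 of the 3 GF pairs. LOC100797149 (annexin D3-like, chromosome 15) had a larger difference that did not pass, 1.73 ± 0.44 (adjusted p 0.14), reaching 92.8 in GF and 90.1 in KF with Al at 24 h. In KF the annexin with the largest difference was LOC100784424 (annexin-like protein RJ4-like, chromosome 13), at -1.22 (adjusted p 0.246). That value rests on the 24 h pair, 212 in control and 22.1 with Al, and without it the difference was -0.20 (adjusted p 0.839 in limma).

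Among 14 tested LURP-one probe sets, 1 was higher and 1 lower in KF, beside 2.17% and 1.62% of all tested probe sets. The LURP-one median was -0.09. LOC100782591 (LURP-one-related 15-like, chromosome 3) was higher in KF by 0.79 ± 0.16 (adjusted p 0.0310 in limma). LOC100783735, the other gene annotated as LURP-one-related 12-like to be named here (chromosome 7), was lower in KF by -0.90 ± 0.16 (adjusted p 0.0195), the direction opposite to LOC100781192. With Al, 0 of 14 were called in GF and 2 in KF, beside 0.828% and 5.48% of all tested probe sets. LOC100782591 rose in KF from 4.41, 3.73 and 3.55 in control to 12.0, 11.4 and 54.4 with Al at 6, 12 and 24 h, a difference of 2.33 ± 0.49 (adjusted p 0.0415). Of these values only the last was above background. LOC100809404 (LURP-one-related 15-like, chromosome 16) fell by 1.35 on the log2 scale in KF (SE 0.23, adjusted p 0.0234), on intensities under 7. Calls were lost under 6 of 13 alternatives for the variety difference of LOC100782591 and 4 of 13 for LOC100783735. The Al calls of LOC100782591 and LOC100809404 were lost under 8 and 5 of 16, among them leaving out the KF pair at 12 h.

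Of the 14 tested probe sets of RuBisCO-associated proteins and class III chitinases, 0 were called between varieties and the median was -0.26. Probe sets annotated jointly to LOC100818206, LOC100779536 and LOC100776347, in the same part of chromosome 3 as LOC100803799, were brighter in GF by mean values that did not pass the test. Those at 2592410 and 2610823 hold identical values and differed by -1.22 ± 0.30 (adjusted p 0.0627 in limma), with 272 to 761 in GF and 74.2 to 488 in KF. LOC100799179, a ruBisCO-associated protein-like gene with its own probe set at 3375014 on chromosome 3, was picked out after its values were seen. It ran from 1211 to 1527 in GF and from 309 to 1357 in KF, so a second gene of this name was bright in both varieties. Its variety difference was -0.52 ± 0.22 (adjusted p 0.25).

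With Al, 1 of these 14 was called in each variety, beside 0.828% of all tested probe sets in GF and 5.48% in KF. It was the same probe set on chromosome 16, annotated to both LOC100815291 (acidic endochitinase-like) and LOC547454 (Chitinase III-A). Class III chitinases cut chitin, the wall polymer of fungi. In GF its intensity went from 1.57, 1.79 and 2.06 in control to 73.4, 90.3 and 72.5 with Al at 6, 12 and 24 h. In KF it went from 1.78, 1.64 and 1.70 to 48.0, 114 and 221. The differences were 5.45 ± 0.39 in GF (adjusted p 0.00489 in limma) and 5.96 ± 0.39 in KF (adjusted p 0.00153), and this relative was above background with Al in both varieties, whereas LOC100803799 was not in KF. Its control values are within the background, so the size of these differences depends on it. The call in GF was lost without the GF pair at 12 h, where only 5 of all tested probe sets were called. Without all 12 h arrays it was lost in both varieties, but there 0 of all tested probe sets were called.

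**Figure D3:**
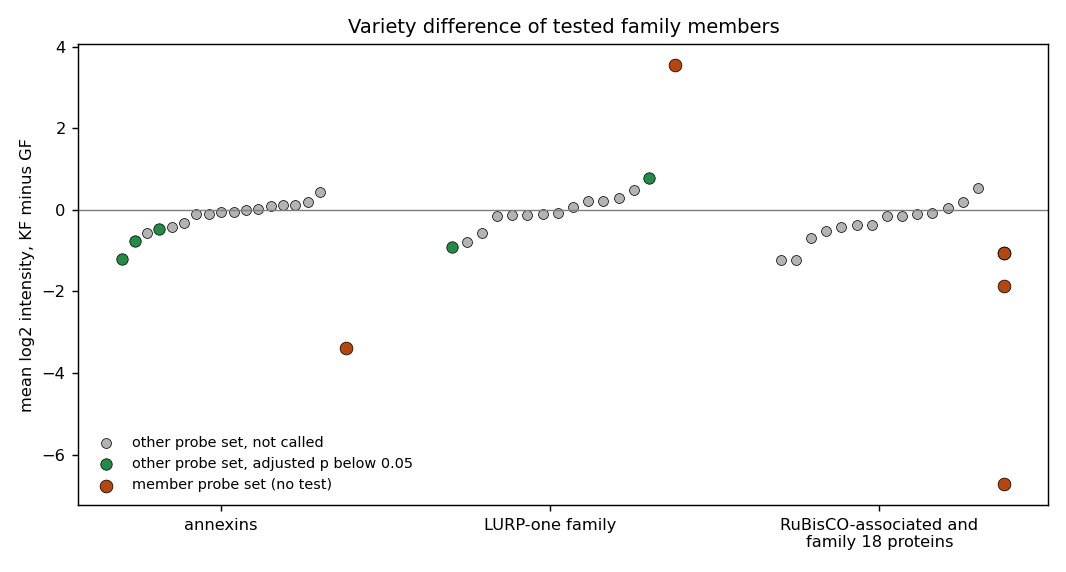
Mean log2 intensity in KF minus that in GF for the tested probe sets of 3 families, ordered within each family. Grey points were not called, green points had an adjusted p below 0.05 and orange points are the member probe sets, which were not tested. Members lie at 3.55 (LURP-one-related 12), -3.38 (annexin D4) and -6.73, -1.86 and -1.05 (RuBisCO-associated).

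Other lists close to the functions of the 3 genes were read in the same fits. Over all tested probe sets, 3.78% were called between varieties, 0.828% for Al in GF and 5.48% for Al in KF. Of 17 tested probe sets of RuBisCO subunits and helpers, 0 were called between varieties. With Al, 2 fell in KF and 0 were called in GF. The 2 encode ruBisCO large subunit-binding proteins, which help RuBisCO to assemble: LOC100786724 fell by 1.01 and LOC100819369 by 1.60 on the log2 scale (adjusted p 0.0137 and 0.0351 in limma), with calls lost under 4 and 7 of 16 alternatives. Among 15 tested probe sets of salicylate-dependent defence, 1 was called with Al in each variety, beside the shares above. It was LOC100217338, which rose and is annotated as NPR1-1, the family of salicylate receptors. Its differences were 2.07 ± 0.24 in GF (adjusted p 0.0157) and 1.76 ± 0.24 in KF (adjusted p 0.0129), lost under 5 and 3 of 16 alternatives. Between varieties 3 of the 15 were higher in KF and 0 lower, beside 2.17% and 1.62% of all tested probe sets. The largest was LOC100817360 (protein SUPPRESSOR OF npr1-1, CONSTITUTIVE 1-like), at 3.33 to 6.06 in GF and 30.6 to 38.1 in KF, a difference of 2.86 ± 0.13 (adjusted p 1.4e-05) that stayed called under all 13 alternatives run. This gene entered the list through the npr1-1 in its name, which does not make it a gene of the salicylate pathway. The other 2, PAD4 (on one of its probe sets) and LOC100817068, differed by 0.58 and 0.78 and lost the call under 8 and 7 of 13. Another PAD4 probe set was tested and not called between varieties.

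Calcium entry channels, which admit the ion that annexins bind, had 55 tested probe sets. Between varieties 2 were called higher in KF, beside 2.17% of all tested probe sets. They were LOC100780320 (glutamate receptor 2.7-like), by 1.37 ± 0.19 (adjusted p 0.00612 in limma), and LOC100797784 (cyclic nucleotide-gated ion channel 1-like), by 1.65 ± 0.26 (adjusted p 0.00937). The first stayed called under all 13 alternatives run and the second was lost under 3, among them leaving out the control arrays of 24 h. With Al 0 were called in GF (0.828% of all tested probe sets) and 7 in KF (5.48%), of which 4 rose and 3 fell, and 0 were called for the difference of the Al effect. The median Al effect of the 55 was 0.20 in GF and 0.06 in KF. The 3 largest rises in KF were all of cyclic nucleotide-gated channels: LOC100782506 by 5.42 ± 0.74, LOC100795955 by 3.87 ± 0.44 and LOC100797784 by 3.65 ± 0.64 (adjusted p 0.0131, 0.0067 and 0.0261). LOC100810308 (glutamate receptor 3.1-like) fell by 1.92 on one of its probe sets (adjusted p 0.0329). These 4 calls were lost under 2, 2, 5 and 6 of 16 alternatives, each time among them leaving out the KF pair at 12 h. The 3 cyclic nucleotide-gated channels were also brighter with Al at all 3 times in GF without passing the test, by 3.48 for LOC100782506, 2.57 for LOC100795955 and 3.41 for LOC100797784 (adjusted p 0.0977, 0.0557 and 0.0727 in limma), and their control values were within the background in both varieties.

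The region around each gene was read for other variety differences, within 250 kb on either side. Around LOC100803799, 4 of 29 other tested probe sets were called (13.8%), 2 higher in KF and 2 higher in GF. Around LOC100781192 it was 0 of 22, with no difference over 0.28 log2 units in either direction. Around LOC100784954 it was 1 of 40 (2.5%), the annexin D3-like LOC100785486, 9.75 kb away on the opposite strand. The share over all tested probe sets was 3.78%, so only the first window held more than that share, on few probe sets.

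**Figure D4:**
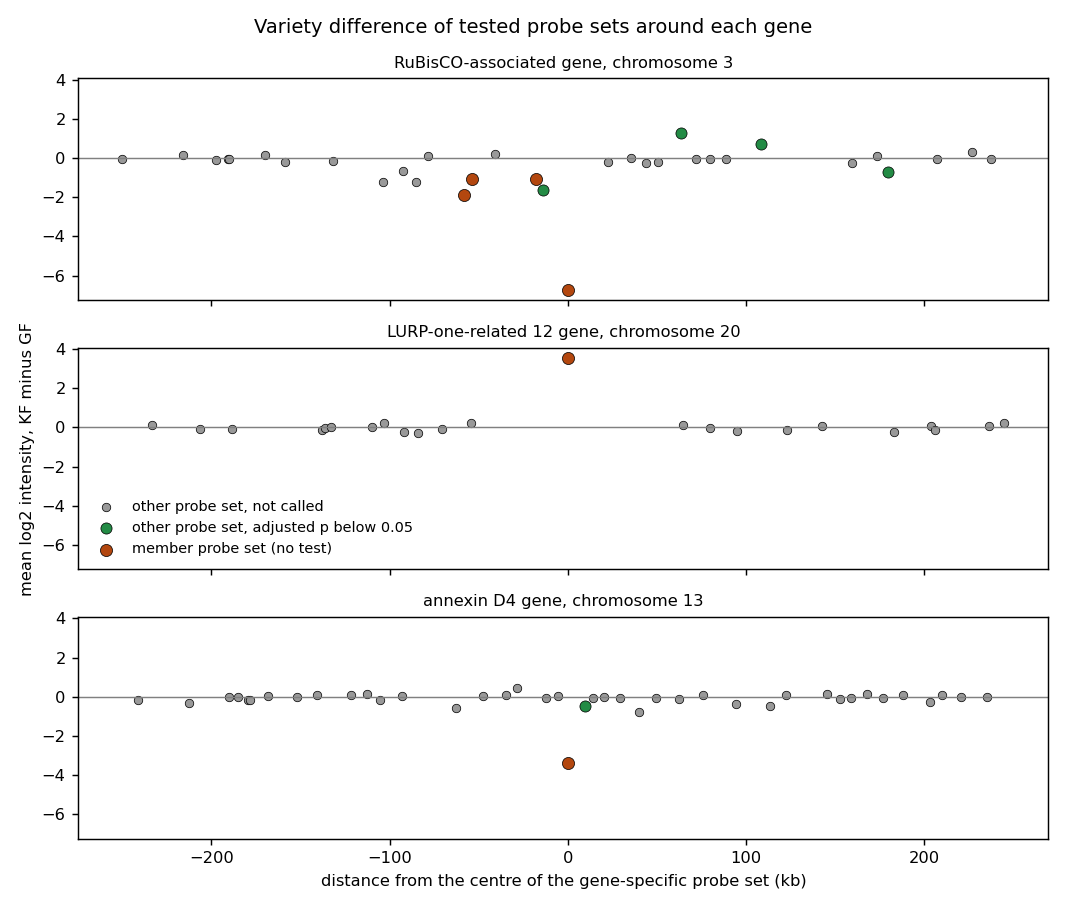
Mean log2 intensity in KF minus that in GF for tested probe sets within 250 kb of each gene, against distance (kb) from the centre of the gene-specific probe set. Orange points are member probe sets, green points other probe sets with an adjusted p below 0.05 (4, 0 and 1 in the 3 panels) and grey points those not called. In the window of the LURP-one-related 12 gene no other difference exceeds 0.28.

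The nearest called probe set to LOC100803799 lies 13.8 kb from it on the same strand, at 2682048 to 2683273. It carries no gene name and is marked as able to bind several transcripts. In GF it read 3.27, 1.98 and 2.20 in control and 22.6, 49.6 and 8.22 with Al at 6, 12 and 24 h, and in KF it stayed between 2.13 and 2.54. Only the GF array with Al at 12 h was above background. Its Al difference in GF was 3.11 ± 0.44 (adjusted p 0.0305 in limma), in KF 0.20 ± 0.44 (adjusted p 0.82), and the difference of the 2 was -2.92 ± 0.62 (adjusted p 0.947). The variety difference was -1.62 ± 0.28 (adjusted p 0.0158), a call lost under 3 of 13 alternatives, those without the control arrays of 6 h, 12 h or 24 h (adjusted p up to 0.0707 in limma). It is a mean over control and Al. In control KF read 2.19, 2.13 and 2.20 at 6, 12 and 24 h, beside the GF control values above. The difference thus lay mainly between the arrays with Al, and the same GF arrays enter the Al call. The Al call was lost under 8 of 16 alternatives, with adjusted p-values from 0.00424 to 0.25, among them leaving out the GF pair at 6 h, 12 h or 24 h. The other called probe sets in this window included LOC100781148 (uncharacterized), higher in KF by 1.29, and a probe set of LOC100788085 (uncharacterized), higher in KF by 0.74. The last was an unnamed probe set annotated to GLYMA03G03063, with a difference of -0.70. Another probe set of LOC100788085 in this window, also annotated to GLYMA03G03063, differed by 0.12 and was not called (adjusted p 0.653 in limma).

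Beside the annexin D4 gene lie other annexins of the same chromosome. LOC100784424 (annexin-like protein RJ4-like) ran from 69.0 to 184 in GF and from 22.1 to 212 in KF, where the lowest value, with Al at 24 h, was not above background. LOC100791668 (also RJ4-like) was within the background in both, at 2.43 to 3.06 and 2.60 to 3.02. For these 2 and for LOC100785486 the arrays of the 2 varieties overlapped. So they did for LOC100782110 (RJ4-like, in the same window), at 1.92 to 2.70 in GF and 1.95 to 2.67 in KF. For the annexin D4 gene they did not overlap, as for 1.59% of tested probe sets. That gene was chosen for its variety difference, so nothing is read from this.

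The genes whose log2 values were most like each member over the 12 arrays were found by Pearson correlation among 33490 probe sets with 1 gene. Since the members split by variety, these likenesses mainly rank other genes with the same split, and no test is given. For LOC100803799 the most like were LOC100787367 (receptor-like protein kinase ANXUR2-like, chromosome 18, r 0.984), which ran from 13.8 to 60.1 in GF and from 2.06 to 2.88 in KF, and LOC100784015 (putative disease resistance RPP13-like protein 1-like, chromosome 3, r 0.982). The uncharacterized LOC100807551, LOC100527480 and LOC100527600 followed, with r of 0.98, 0.973 and 0.966. For LOC100781192 the first was LOC100817360, the SUPPRESSOR OF npr1-1 relative named above (r 0.992). It was followed by LOC100797586 (E3 ubiquitin-protein ligase RING1-like, r 0.991), at 5.61 to 9.28 in GF and 65.5 to 92.0 in KF. The uncharacterized LOC100527900 and LOC100500643 came next (r 0.989 and 0.988), and then LOC100305456 (TIR-NBS-LRR type disease resistance protein, r 0.98). For LOC100784954 these were the uncharacterized LOC100806841 (r 0.97), LOC100784702 (gamma-interferon-inducible lysosomal thiol reductase-like, r 0.96), the disease resistance protein RPM1-like genes LOC100784168 and LOC100804137 (r 0.94 and 0.93) and LOC100527480 (r 0.93). LOC100527480 is on both GF-high lists. Some of these genes were dim: LOC100807551 read 2.51 to 3.27 in GF and 1.75 to 1.99 in KF, within the background. LOC100784702 read 1.92 to 2.62 in GF and 1.88 to 1.92 in KF, and was too dim to be tested. The varieties overlapped for LOC100806841, at 9.81 to 20.8 in GF and 7.21 to 9.93 in KF.

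Within the bright variety alone, over 6 arrays, the likenesses were to other genes. LOC100803799 in GF was most like LOC100796103 (6-phosphogluconate dehydrogenase, decarboxylating-like, r 0.996), SGF14L (14-3-3-like protein C-like, r 0.996) and CYSP1 (cysteine proteinase, r 0.993). The arrays of the 2 varieties overlapped for all 3, for example CYSP1 at 7.96 to 21.3 in GF and 13.7 to 21.2 in KF. LOC100784954 in GF was most like LOC100780137 (glutaredoxin-C6-like, r 0.998), at 4.53 to 7.28 in GF and 4.82 to 7.55 in KF. For LOC100781192 in KF, whose values hardly varied, the first was LOC100810446 (carbon catabolite repressor protein 4 homolog 6-like, r 0.998). With 6 arrays and 33490 candidates, high values of r are easily found.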

How the data were processed

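Intensity values for 1 probe set and array were used as deposited by the authors, on a linear scale and normalized across arrays; the method is not given in the sources used here, and their scale was read from the values. The deposited annotation columns of other kinds (position, gene and transcript text) hold no measurement. A further 24 deposited value columns with names that match no sample label were not used.

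Of 75990 probe sets, 66195 are of the main category. Log2 was taken with no pseudocount, and the lowest 0.25 by mean (below 1.12) were left out, leaving 49646. The blocked fits used R 4.3.3 and limma 3.58.1 (functions lmFit and eBayes, trend on) and had 4 residual degrees of freedom. P-values were adjusted by Benjamini-Hochberg over all 49646, called below 0.05. The fits were tested on simulated data. Alternatives changed the filter, the normalization (cyclic loess), the pseudocount, the blocks, the trend, the background level or the arrays included. The number of arrays limits the precision.

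The members, lists and tests were chosen with earlier results of these data known. Named genes were all member probe sets, the 5 most like each member over all arrays and the 3 over its brighter variety, up to 4 per family list by Al effect and by variety difference, and the 3 neighbours on each side. Choosing by protein identity was not done, and no sequence is shown, because no sequence table was used here. Lists were found by words in the annotation. Symbols are the array's: LOC100803799 and LOC100784954 matched the RefSeq gene table, and LOC100781192 keeps the file's name.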

Additional observations from a re-analysis of the deposited data

How the results depend on the processing

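No paired analysis by replicate number was possible because each condition has 1 array. The planned use of the series' value table as a second source was not run, since it is the source of all values. For the 5 distinct member probe sets, 25 results under 350 alternative values gave 328 with the same direction and call, 9 newly called and 13 with another sign, and the cause of the changes was not tested. Among the 9 are the KF time differences of the shared sets without the KF control series, where the spread comes from GF alone. The Al effect of LOC100803799 in GF was 2.62 without blocks and with an additive time effect (adjusted p 0.05 and 0.0339 in limma) and 2.02 to 3.39 with arrays left out. That of LOC100784954 was 1.30 to 2.98 with arrays left out. The Al effect of LOC100781192 turned to 0.075 in KF under cyclic loess, and its time difference in KF to 0.088. With arrays left out, small values turned within these ranges: LOC100781192 with Al in GF -0.094 to 0.38, LOC100803799 with Al in KF -0.040 to 0.15, the variety difference of the Al effect -1.02 to 0.042 for the 27-probe set and -0.57 to 0.039 for LOC100781192, and 24 h minus 6 h -1.59 to 1.06 for LOC100784954 in GF, -0.040 to 0.48 for it in KF and -0.13 to 0.25 for LOC100803799 in KF. Over all alternatives, the time difference in KF was -2.56 to -1.88 for the 27-probe set and -2.01 to -1.05 for the 25-probe sets.

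Counts over all probe sets moved more. Called for Al in GF were 411, against 794 without blocks, 1352 with an additive effect and 0 to 1423 with arrays left out. In KF these were 2719, against 6621 with an additive effect and 0 to 3293 with arrays left out. Without all 12 h arrays 0 were called for Al in either variety, so every Al call named above was lost there. In GF 102, 5 and 42 were called without the GF pair at 6, 12 and 24 h, and in KF 254 without the KF pair at 12 h. For the difference of the Al effect 2 were called, against 1 under cyclic loess or without the intensity trend, 4 without blocks, 5 with an additive effect and 0 to 6 with arrays left out. Between varieties 1879 were called, against 746 without blocks, 1055 with an additive effect and 699 to 2652 with arrays left out. For 24 h minus 6 h in KF the range with arrays left out was 0 to 1983. Fewer arrays leave fewer degrees of freedom. With the background's median in place of its 95th percentile, the variety differences became the measured ones, 6.73 for LOC100803799, 3.55 for LOC100781192 and 3.38 for LOC100784954 on the log2 scale. Of 25 called results of named genes that are no members, 254 of 365 alternative values kept the call, and 111 lost it without a change of sign.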
